A study of Xenopus laevis with 6 samples.

Results

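The matrix metalloproteases (MMPs), the ADAM and ADAMTS proteases and their TIMP inhibitors were described in whole *Xenopus laevis* embryos, as 87 of the 35773 gene models of the count table. Members were chosen by name alone: every model whose symbol starts with *mmp*, *adam* or *adamts* and a digit, or with *timp*, in the L and the S copy that this allotetraploid frog carries. They came from 51 genes, namely 20 MMP genes with 33 models, 3 TIMP genes with 6, 10 ADAM genes with 18 and 18 ADAMTS genes with 30. Of the 51 genes, 36 had an L and an S copy in the table, 11 an L copy only and 4 an S copy only.

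Poly(A) RNA of whole embryos at stage 32, the late tailbud, was sequenced in 6 libraries. There were 2 control libraries (control 1 and 2), 2 of embryos injected with *kdm5c* MO (1 and 2) and 2 of embryos injected with *kdm3a* MO (3 and 4), the numbers being those of the labels. A morpholino oligonucleotide (MO) is an antisense oligonucleotide, and these were aimed at mRNAs of the histone lysine demethylases Kdm5c and Kdm3a. The labels place the injection at the 2-cell stage and the methods at the 1-cell stage. Whether the control libraries came from injected embryos was not stated, and no strain or genetic background was given for any group. As the label names of the *kdm3a* MO libraries bear a later date, batch and condition cannot be told apart in them.

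MMPs are zinc proteases, made as inactive precursors, that cut collagens and other matrix proteins. TIMPs block them by binding the active site. ADAMs are membrane-bound relatives, many of which release the outer part of cell-surface proteins, a step known as shedding. Some, here *adam11* and *adam23*, lack the zinc-binding site of the proteases. In *Xenopus* several ADAMs are known for roles in cranial neural crest migration. ADAMTSs are secreted and cut proteoglycans, procollagens and other matrix proteins. In vertebrates the collagenase genes and their relatives sit side by side in the genome, and many are induced in wounds and inflammation through AP-1 transcription factors.

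Library totals ran from 12838245 to 20217436 counts. A level is given as CPM, the count relative to the library total, scaled by trimmed mean of M-values (TMM) factors, which were 0.710 in *kdm5c* MO 1 and between 1.02 and 1.16 in the other libraries. Of the counts of 20 or fewer, 89.7% to 95.04% were even, as where both mates of a read pair are counted, and the fragments behind a value may then be fewer than its counts. The mRNAs the MOs were aimed at do not check the labels, since an MO can leave its mRNA in place. The *kdm3a.L* level was 122 and 78.3 CPM in the controls and 409 and 374 CPM in the *kdm3a* MO libraries, while *kdm3a.S*, at 262 and 146 CPM against 432 and 239 CPM, overlapped. *kdm5c.L* was at 115 and 108 CPM in the controls and 142 and 129 CPM in the *kdm5c* MO libraries, and *kdm5c.S* at 61.2 and 62.6 CPM against 34.6 and 65.2 CPM. Markers of skeletal muscle, neural tissue, epidermis and neural crest were present in all 6 libraries, as in a whole embryo. Control 1 stood apart from control 2 in some matrix genes: *col1a1.L*, a chain of type I collagen, had 4 counts in control 1 and 5379 in control 2, and *col3a1.L*, type III collagen, 10 and 4822. Other matrix genes went the other way: *fn1.L*, fibronectin, had 5071 counts in control 1 and 1993 in control 2, and *lama1.L*, a laminin chain, 3589 and 1685. For some of the members whose result turned on control 1, values with a control left out are given. A library then left alone in its group was assumed to vary like the other group.

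The largest differences lay in the collagenases, the MMPs able to cut intact fibrillar collagen. The L copy of *mmp8*, known in mammals as the collagenase of neutrophils, had 4 counts in control 1 and 14 in control 2, against 4285 in *kdm3a* MO 3 and 205 in *kdm3a* MO 4. In *kdm5c* MO 1 it had 1649 counts and in *kdm5c* MO 2 it had 14. Both *kdm3a* MO libraries thus lay above both controls, while *kdm5c* MO 2, at 1.06 CPM, was close to control 2, at 0.819 CPM.

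The level of *mmp8.L* was 109 ± 134 CPM in *kdm3a* MO and 0.543 ± 0.390 CPM in the controls (SD, n = 2 each), a log2 fold change of 7.57 (SE 1.20, adjusted p = 0.00261 by edgeR's exact test with Benjamini-Hochberg adjustment over all models). A copy was called where this adjusted p, the false discovery rate (FDR), was below 0.01 and the difference over 4-fold. Of the 79 members tested in *kdm3a* MO against control, *mmp8.L* was the 1 called, or 1.27%. Of all models tested, 0.121% were called higher. With 4 and 14 counts in the controls, *mmp8.L* needed the MO libraries, where it was high, to pass a filter on low counts. The share of members called was thus partly set by the filter and describes the tested copies only. The call was lost without *kdm3a* MO 3 (log2 fold change 4.65, adjusted p = 0.857), without control 1 (adjusted p = 0.1999), under edgeR's quasi-likelihood test (adjusted p = 0.9998) and with all 6 libraries in the fit (adjusted p = 0.311). Over the alternatives other than leaving out a library, its adjusted p ran from 3.17e-08, with DESeq2, to 0.9998. In whole embryos, more cells that express a gene and more RNA per cell cannot be told apart.

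The S copy, *mmp8.S*, had 0 and 30 counts in the controls, 1460 and 579 in *kdm3a* MO 3 and 4, and 1090 and 56 in *kdm5c* MO 1 and 2. All 4 MO libraries lay above both controls. Its log2 fold change was 5.88 (SE 1.33) in *kdm3a* MO with an adjusted p of 0.154 by edgeR's exact test, and 6.01 (SE 1.68) in *kdm5c* MO with an adjusted p of 1, so that it was not called in either. Without control 1 the value in *kdm3a* MO was 4.93 and *mmp8.S* was called (adjusted p = 0.00240 by the exact test). It was called without control 2 as well, in both comparisons, but control 1 had no count of it, so the fitted values, 12.8 and 12.5, depend on the prior count. Without *kdm5c* MO 1 the value in *kdm5c* MO was 2.22.

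The *mmp1* copies encode the interstitial collagenase, and RefSeq lists the S copy also under the name mmp18. *mmp1.S* had 20 and 166 counts in the controls, 2590 and 1250 in the *kdm3a* MO libraries, and 2113 and 218 in the *kdm5c* MO libraries. *mmp1.L* had no count in either control or in *kdm5c* MO 2, and had 516, 12 and 492 counts in *kdm3a* MO 3, *kdm3a* MO 4 and *kdm5c* MO 1. The S copy was therefore present in every library, and the L copy in 3 of the 6.

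For *mmp1.S* the log2 fold change in *kdm3a* MO was 4.18 (SE 0.93, adjusted p = 0.0450 by edgeR's exact test), and without *kdm3a* MO 3 it was 3.94 with an adjusted p of 1. The mean level of *mmp1.L* was at least 67.4-fold higher in *kdm3a* MO and at least 132-fold higher in *kdm5c* MO than the level of 3 counts per control library, bounds that rest mostly on *kdm3a* MO 3 and *kdm5c* MO 1. By edgeR's exact test the adjusted p of *mmp1.L* in *kdm3a* MO was 0.0386. At an FDR below 0.05 with no fold limit, 3 of 79 members were higher in *kdm3a* MO (*mmp8.L*, *mmp1.L* and *mmp1.S*), or 3.8%, beside 0.211% of all models. Of these, *mmp8.L* and *mmp1.L* needed the MO libraries to pass the filter on low counts.

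The third collagenase, *mmp13*, was listed as an S copy and showed a smaller and more even difference. *mmp13.S* had 106 and 83 counts in the controls, 276 and 246 in *kdm5c* MO 1 and 2, and 238 and 270 in *kdm3a* MO 3 and 4. Its level was 5.98 ± 1.59 CPM in the controls, 23.3 ± 6.52 CPM in *kdm5c* MO and 14.8 ± 4.90 CPM in *kdm3a* MO (SD, n = 2 each), and no MO library reached down to a control. The log2 fold change in *kdm5c* MO was 1.96 (SE 0.70, unadjusted p = 0.00774, adjusted p = 1 by edgeR's exact test) and stayed between 1.63 and 2.26 when any 1 library was left out. The related *mmp13l.L* was at 0 in the controls and in *kdm5c* MO, and had 28 and 6 counts in *kdm3a* MO 3 and 4, a mean level at least 4.62-fold above 3 counts per control library. Its S copy had 4 counts in *kdm3a* MO 3 and none elsewhere. Neither *mmp13l* copy had enough counts to be tested.

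**Figure D1:**
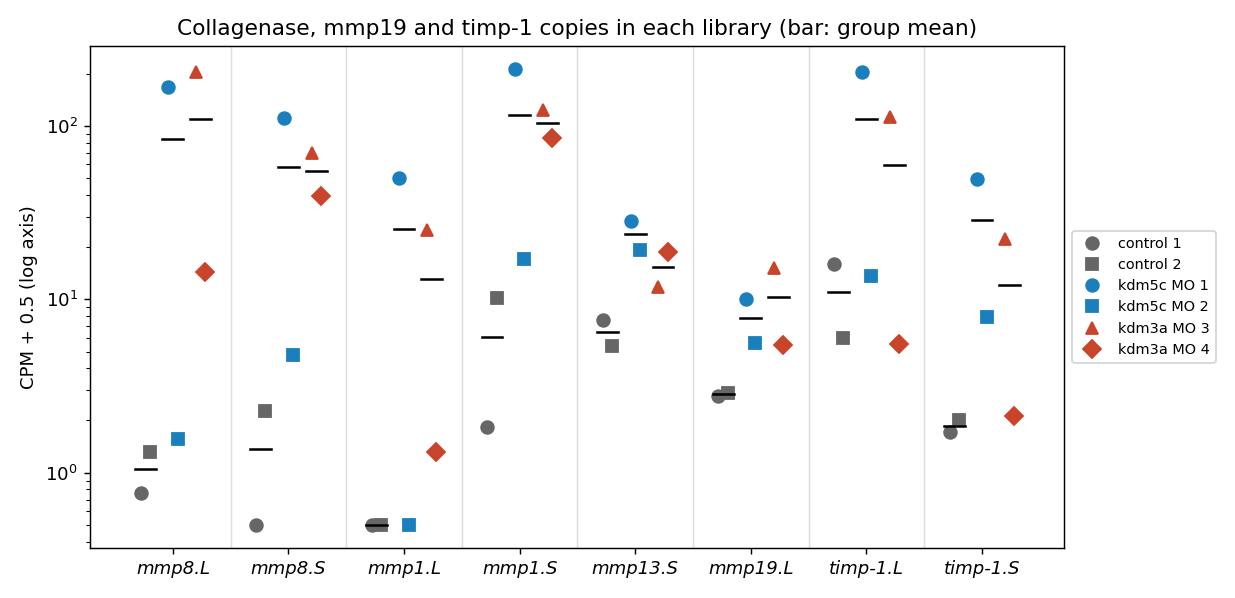
Level of the collagenase, *mmp19* and *timp-1* copies in each library, in CPM plus 0.5 on a log axis, with 1 point per library, coloured by group, and a bar at the mean of the 2 libraries of a group. *kdm5c* MO 1 and *kdm3a* MO 3 are the 2 highest points for *mmp8*, *mmp1*, *mmp19* and *timp-1*, and *kdm3a* MO 4 lies near the controls for both *timp-1* copies.

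By unadjusted p, 4 of the 5 collagenase copies tested in *kdm3a* MO (*mmp8.L*, *mmp8.S*, *mmp1.L* and *mmp1.S*) and 4 of the 4 tested in *kdm5c* MO (*mmp8.L*, *mmp8.S*, *mmp1.S* and *mmp13.S*) were below 0.05 and higher, with medians of 5.88 and 5.19 log2 units. Of all models, 1.92% and 3.29% were higher at that limit. The median of all models tested was -0.015 and -0.016 log2 units. *mmp8.L*, *mmp8.S* and, in *kdm3a* MO, *mmp1.L* needed the MO libraries, where they were high, to pass the filter on low counts. In *kdm5c* MO *mmp1.L* did not pass. These fractions and medians were thus partly set by the filter and describe the tested copies only. The summed collagenase level was 8.71 and 17.1 CPM in the controls, 568 and 40.5 CPM in *kdm5c* MO 1 and 2, and 434 and 157 CPM in *kdm3a* MO 3 and 4. In *kdm5c* MO the differences of *mmp8.L* and *mmp1.S* rested largely on *kdm5c* MO 1. Without it their log2 fold changes were 0.92 and 1.55, against 7.25 and 4.38 with it. For *mmp8.S* the value was 2.22 without it and 6.01 with it. That of *mmp13.S* stayed between 1.63 and 2.26 when any 1 library was left out.

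Over all members, 6 of 79 were higher in *kdm3a* MO at an unadjusted p below 0.05 by edgeR's exact test, or 7.59%, beside 1.92% of all models, and 0 were lower, beside 1.28%. The 6 were the 4 collagenase copies, *timp-1.S* and *mmp19.L*, and *mmp8.L*, *mmp8.S* and *mmp1.L* among them needed the MO libraries to pass the filter on low counts. Counted by groups that do not overlap, 16 members (20.3%) were higher and 5 (6.33%) lower in *kdm3a* MO, where 17.1% and 15.0% of all models did so. The median over the tested members was 0.010 log2 units against -0.015 over all models, with 42 members higher and 37 lower at any p.

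In *kdm5c* MO, 0 of 77 members were called by edgeR's exact test, as were 0.0% of all models, and DESeq2 and the quasi-likelihood test also called 0. At an unadjusted p below 0.05 by the exact test, 6 members (7.79%) were higher, beside 3.29% of all models, and 1 (1.3%) was lower, beside 1.01%. The 6 were *mmp8.L*, *mmp8.S*, *mmp1.S*, *mmp13.S*, *timp-1.L* and *timp-1.S*. *mmp8.L* and *mmp8.S* needed the MO libraries to pass the filter on low counts, and the 1 lower member, *adamts14.L*, needed the controls. The median over the members was -0.19 log2 units, 0.13 without *kdm5c* MO 1 and 1.31 without control 2. Over all models it was -0.016, -0.049 and 0.14. Groups did not overlap for 9 members higher (11.7%) and 13 lower (16.9%), beside 17.7% and 17.9% of all models.

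**Figure D2:**
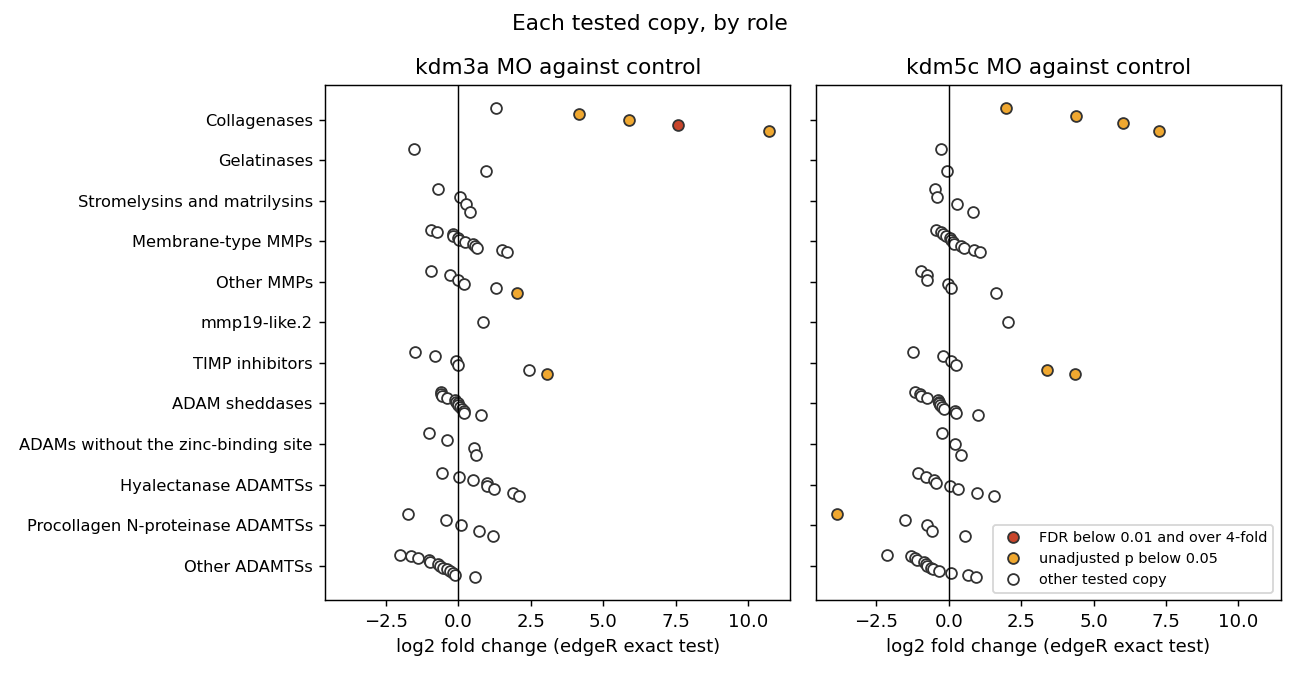
Log2 fold change of every tested copy in *kdm3a* MO and in *kdm5c* MO against control, by the role of the gene, with copies of a role spread vertically for legibility. The collagenases lie to the right of 0 in both comparisons, the *timp-1* copies are the highest among the TIMPs, and of the ADAM and ADAMTS copies only *adamts14.L* in *kdm5c* MO is below an unadjusted p of 0.05; the point of *mmp1.L* in *kdm3a* MO rests on controls at 0 and depends on the prior count of the fit.

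In the RefSeq annotation of assembly Xenopus_laevis_v10.1, used here for names and gene order only, the collagenases lie in 1 run of MMP genes on each subgenome, between *tmem123* and *dcun1d5*. The L run holds 11 genes, of which 5 were found in the count table by symbol (*mmp3.L*, *mmp7.L*, *mmp8.L*, *mmp1.L* and *mmp13l.L*), and the S run holds 9, of which 4 were found (*mmp13.S*, *mmp8.S*, *mmp1.S* and *mmp13l.S*). Within the L run the neighbours had unlike values. *mmp3.L*, a stromelysin, had 806 and 1289 counts in the controls, 522 and 518 in *kdm5c* MO, and 1064 and 1597 in *kdm3a* MO. *mmp7.L*, the matrilysin, had 230 and 1604 counts in the controls, 239 and 773 in *kdm5c* MO, and 323 and 791 in *kdm3a* MO. For both of these genes the *kdm3a* MO and control levels overlapped, while those of *mmp8.L* and *mmp1.L*, in the same run, did not. The flanking *tmem123.L* had 804 and 393 counts in the controls and 332 to 529 in the MO libraries, and *dcun1d5.L* had 315 and 354 counts in the controls and 168 to 569 in the MO libraries.

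**Figure D3:**
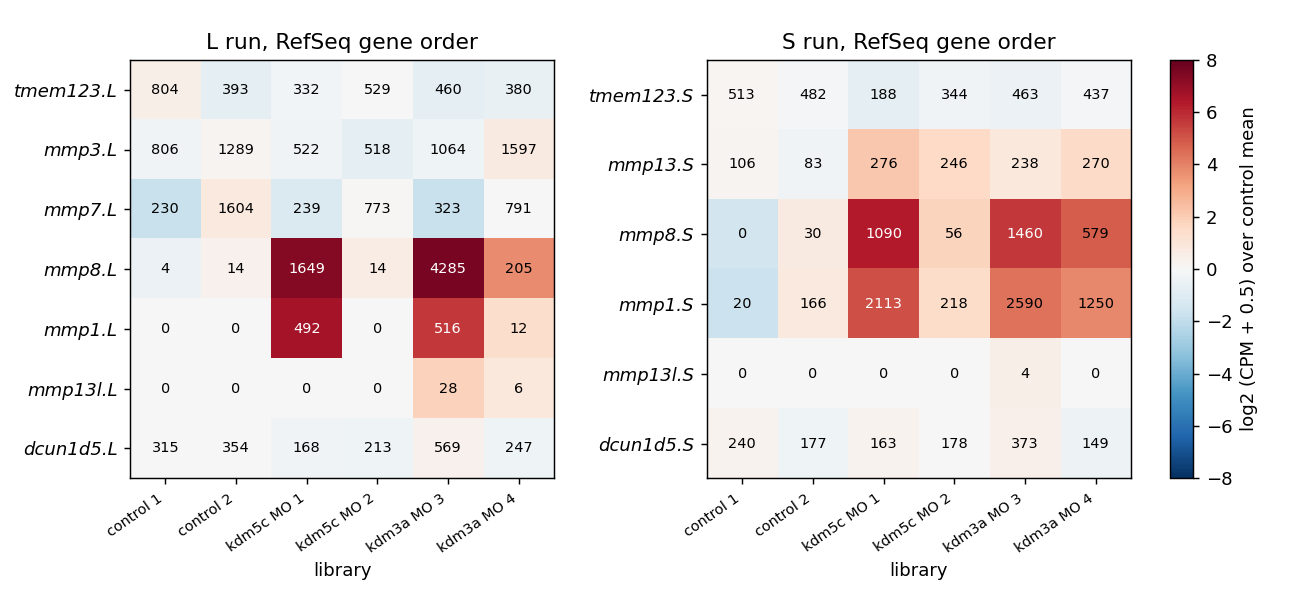
Counts of the MMP run and of its flanking genes on the L and the S subgenome, in RefSeq gene order, with the raw count printed in each cell and the colour giving log2 of (CPM plus 0.5) over the control mean. The strongest red cells are those of *mmp8* and *mmp1* in *kdm5c* MO 1 and *kdm3a* MO 3, and of *mmp8.S* in *kdm3a* MO 4. In *kdm5c* MO 2 *mmp1.L* is at 0 and *mmp8.L* is pale, and the flanking genes stay near white. Annotated genes of the run with no matching symbol in the count table are left out.

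Among the inhibitors, *timp-1*, as the file spells the gene for tissue inhibitor of metalloproteinases 1, followed the same libraries as the collagenases. *timp-1.L* had 232 and 94 counts in the controls, 2033 and 173 in *kdm5c* MO 1 and 2, and 2362 and 74 in *kdm3a* MO 3 and 4. *timp-1.S* had 18 and 26 counts in the controls, 484 and 98 in *kdm5c* MO, and 455 and 24 in *kdm3a* MO. Each copy was thus highest in *kdm5c* MO 1 and *kdm3a* MO 3. *kdm3a* MO 4 was below both controls for *timp-1.L*, at 5.00 CPM, and *kdm5c* MO 2 lay between them at 13.1 CPM.

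By edgeR's exact test the log2 fold change in *kdm5c* MO was 4.36 (SE 0.98, unadjusted p = 0.000128, adjusted p = 0.305) for *timp-1.S* and 3.39 (SE 1.15, unadjusted p = 0.00947, adjusted p = 1) for *timp-1.L*. In *kdm3a* MO it was 3.04 (SE 1.21, unadjusted p = 0.0241) for *timp-1.S* and 2.45 (SE 1.23, unadjusted p = 0.0698) for *timp-1.L*, each with an adjusted p of 1. Without *kdm3a* MO 3 the sign for *timp-1.L* turned, to -1.06, and the value for *timp-1.S* was 0.26. Without *kdm5c* MO 1 the values in *kdm5c* MO were 0.31 for *timp-1.L* and 2.42 for *timp-1.S*. The other inhibitors did not share the pattern. *timp2*, which in mammals also helps the membrane protease MMP14 to activate MMP2, had 30 and 197 counts of its L copy in the controls and 59 to 195 in the MO libraries. *timp3.L*, which encodes a matrix-bound inhibitor, had 199 and 57 counts in the controls and 38 to 57 in the MO libraries. The S copies of *timp2* and *timp3* had between 12 and 77 counts in all libraries.

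The gelatinases cut denatured collagen and basement membrane collagen, and here the controls themselves were far apart. *mmp9.S* had 2 counts in control 1 and 1316 in control 2, with 188 and 590 in *kdm5c* MO 1 and 2, and 160 and 299 in *kdm3a* MO 3 and 4. *mmp2.S* had 16 and 503 counts in the controls, 84 and 270 in *kdm5c* MO, and 512 and 546 in *kdm3a* MO. For *mmp9.S* all 4 MO libraries lay between the controls. In CPM *mmp2.S* was at 29.4 in control 2, 24.4 and 36.9 in *kdm3a* MO 3 and 4, and 20.5 in *kdm5c* MO 2. It was at 8.48 CPM in *kdm5c* MO 1 and 1.07 CPM in control 1.

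The values of the gelatinases depended on which control was kept. By edgeR's exact test the log2 fold change of *mmp9.S* in *kdm3a* MO was -1.51 (SE 1.74, adjusted p = 1) and in *kdm5c* MO -0.28 (SE 1.68, adjusted p = 1). Without control 1 these were -2.47 and -1.27. Without control 2 both were positive, but the 2 counts left in control 1 are under the floor of 3, so no fold is read from them. For *mmp2.S* the value was 0.96 (SE 1.24) in *kdm3a* MO and -0.077 (SE 1.27) in *kdm5c* MO, 0.050 and -1.02 without control 1, and 4.82 and 3.75 without control 2. Its sign in *kdm3a* MO stayed positive. The table's *mmp9.S* could not be matched with certainty to 1 of the *mmp9* genes that RefSeq lists.

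The same split ran through many members. Of the 79 members tested in at least 1 comparison, 22 (27.8%) were over 4-fold lower in control 1 than in control 2, on the scale of CPM plus 0.5, beside 7.87% of 27327 models. In the opposite direction there was 1 member (*adamts18.S*), beside 2.2% of models. Control 1 alone held the lowest of the 6 levels for 18 of the 22, which is partly set by how the 22 were chosen. Over all 79 it held the lowest for 40, with ties at 0 credited to control 1, as for *mmp1.L*, *adam23.S*, *adamts13.L* and *adamts19.L*. The share over all models was not counted. The 22 included all 6 copies of *mmp16*, *mmp17* and *mmp24*, which encode membrane-type MMPs, both gelatinases, the collagenase copies *mmp1.S* and *mmp8.S*, *mmp7.L*, *mmp19-like.2.L*, *timp2.L*, *adamts1.S* and *adamts15.S*. *mmp17.L* had 14 counts in control 1 and 206 in control 2, *mmp16.L* had 0 and 50, and *adamts15.S* had 0 and 89. The ADAM sheddases held none of the 22. By the same measure 6 members were lower (7.59%, beside 5.77% of models) and 6 higher (7.59%, beside 2.77%) in *kdm5c* MO 1 than in *kdm5c* MO 2. In *kdm3a* MO 3, 4 were lower (5.06%, beside 4.05%) and 4 higher (5.06%, beside 2.89%) than in *kdm3a* MO 4. The fibrillar collagens given above were low in the same library. Whether tissue, RNA or library content set this apart was not tested.

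**Figure D4:**
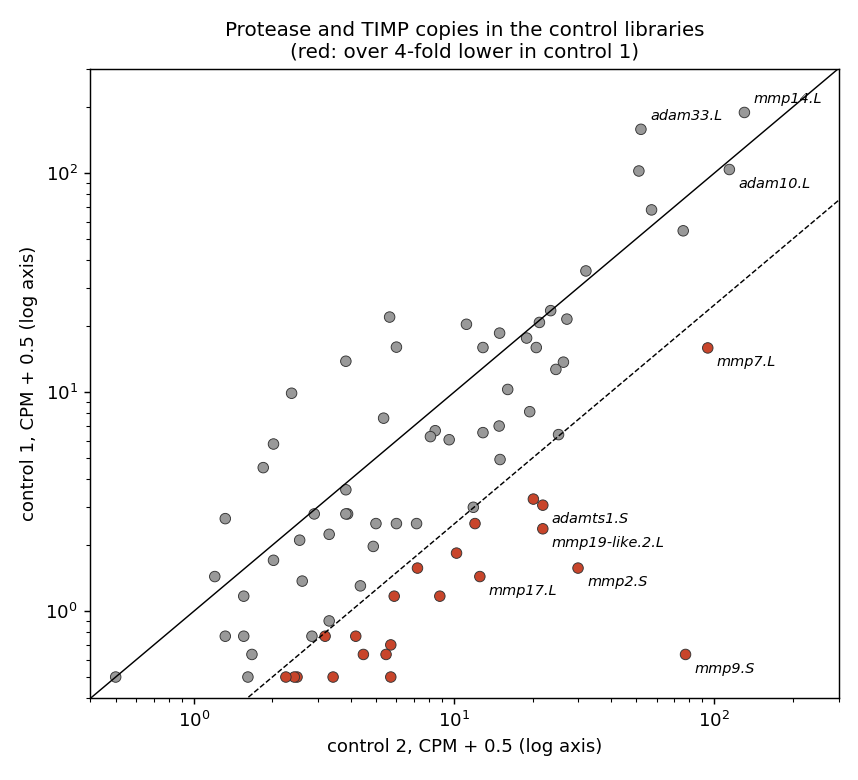
Level of each of the 79 tested copies in control 2 (horizontal) and control 1 (vertical), in CPM plus 0.5 on log axes, with equal levels on the solid line and a 4-fold lower level in control 1 on the dashed line. The 22 red copies lie below the dashed line, with *mmp9.S* and *mmp2.S* farthest from it, and *mmp14.L*, *adam10.L* and *adam33.L* near or above the solid line.

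The other MMPs showed no call. *mmp14.L*, whose product MT1-MMP is a membrane collagenase and activator of MMP2, had 2815 and 2222 counts in the controls, 1451 and 1948 in *kdm5c* MO, and 3707 and 2998 in *kdm3a* MO, and on the CPM scale it ranged only from 130 to 203. Its S copy had 26 to 155 counts. *mmp15.L* and *mmp15.S*, another membrane-type MMP, had 256 to 471 and 142 to 426 counts. Of the 12 membrane-type copies 0 were below an unadjusted p of 0.05 by edgeR's exact test in either comparison against control. That is near the background, as 1.92% and 3.29% of all models were higher and 1.28% and 1.01% lower at that limit. *mmp19.L* was the 1 other MMP copy below that limit in *kdm3a* MO. It had 34 and 41 counts in the controls, 307 and 73 in *kdm3a* MO 3 and 4, and 94 and 67 in *kdm5c* MO 1 and 2. All 4 MO libraries lay above the controls, and the log2 fold change in *kdm3a* MO was 2.03 (SE 0.91, unadjusted p = 0.0354, adjusted p = 1 by edgeR's exact test). *mmp19-like.2.L* had 28 and 366 counts in the controls, 353 and 801 in *kdm5c* MO, and 605 and 213 in *kdm3a* MO, with a log2 fold change of 2.05 (SE 1.03) in *kdm5c* MO that was 1.17 without control 1 and 4.68 without control 2. *mmp7.S* had at most 2 counts in any library.

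The ADAMs, many of them sheddases, held no copy below an unadjusted p of 0.05 by edgeR's exact test in either comparison against control. Only 1.92% and 3.29% of all models were higher and 1.28% and 1.01% lower at that limit, so this is near the background. *adam10* and *adam17*, the main sheddases of Notch receptors and of tumour necrosis factor and growth factor ligands in mammals, were abundant. *adam10.L* had 1542 and 1944 counts in the controls, 577 and 1669 in *kdm5c* MO, and 2394 and 1858 in *kdm3a* MO. *adam10.S* had 1006 and 972 counts in the controls, 106 and 703 in *kdm5c* MO, and 178 and 1113 in *kdm3a* MO. The S copy was therefore low in *kdm5c* MO 1 and *kdm3a* MO 3, the libraries with the highest collagenase levels, and near the controls in their partners. *adam17.L* had 273 to 540 and *adam17.S* 88 to 328 counts.

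*adam33.L*, which RefSeq also lists as *adam13*, a protease known in *Xenopus* for cranial neural crest migration, had 2357 and 884 counts in the controls and 569 to 1656 in the MO libraries. In CPM *adam33.L* was at 158 and 51.7 in the controls, with every MO library between them, at 57.5 to 81.5. Its S copy had 30 to 110 counts. *adam9.S* had 1518 and 868 counts in the controls, 797 and 734 in *kdm5c* MO, and 2277 and 688 in *kdm3a* MO. In CPM it was at 102 and 50.8 in the controls, and at 80.5 and 55.7 in *kdm5c* MO, between the controls. In *kdm3a* MO it was at 108 and 46.5 CPM. *adam9.L* had 231 and 212 counts in the controls, 38 and 114 in *kdm5c* MO, and 38 and 257 in *kdm3a* MO, again low in *kdm5c* MO 1 and *kdm3a* MO 3. *adam19.S* and *adam12*, whose products are linked to neural crest and muscle in *Xenopus* and other vertebrates, had 58 to 386 counts and, for the copies of *adam12*, 10 to 86.

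Of the ADAMTSs, those that cut hyaluronan-binding proteoglycans (hyalectanases) had a median of 0.99 log2 units in *kdm3a* MO over 8 tested copies. Of the 8, 7 were higher at any p. By edgeR's exact test 0 were below an unadjusted p of 0.05, beside 1.92% of all models higher and 1.28% lower. *adamts1.L* had 197 and 441 counts in the controls, 1094 and 614 in *kdm3a* MO, and 264 and 291 in *kdm5c* MO. *adamts1.S* had 38 and 366 counts in the controls, 877 and 742 in *kdm3a* MO, and 242 and 298 in *kdm5c* MO. Both *kdm3a* MO libraries lay above both controls for each copy, and the log2 fold changes were 1.22 (SE 0.63, unadjusted p = 0.0594) and 1.89 (SE 0.97, unadjusted p = 0.0657) by edgeR's exact test, neither past a limit. For *adamts1.S* the value was 1.09 without control 1 and 4.16 without control 2, where it was called (adjusted p = 0.00215). *adamts4.L*, an aggrecanase, had 13 and 36 counts in the controls and 211 and 45 in *kdm3a* MO, with a log2 fold change of 2.09 (SE 1.04, unadjusted p = 0.0625). *adamts9.L*, whose product cuts the proteoglycan versican, had 66 and 248 counts in the controls and 22 to 151 in the MO libraries, and *adamts9.S* had 0 to 18.

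*adamts14.L*, one of the procollagen N-proteinases that trim fibrillar procollagen, was the 1 member lower in *kdm5c* MO at an unadjusted p below 0.05. It had 60 and 23 counts in the controls, 2 and 2 in *kdm5c* MO, and 0 and 24 in *kdm3a* MO. In the *kdm5c* MO comparison this copy needed the controls, where it was high, to pass the filter on low counts. The *kdm5c* MO libraries lay under the floor of 3 counts and the log2 fold change was -3.86 (SE 1.39, unadjusted p = 0.0116, adjusted p = 1 by edgeR's exact test). The other copy, *adamts14.S*, had 4 and 40 counts in the controls and 0 and 20 in *kdm5c* MO. Its log2 fold change there was -0.77 (SE 1.85, unadjusted p = 0.739 by the exact test). The ADAMTSs that are neither hyalectanases nor procollagen N-proteinases had a median of -0.65 log2 units in *kdm3a* MO and -0.74 in *kdm5c* MO over 13 tested copies. Of these 13, 0 were below an unadjusted p of 0.05 by the exact test in either direction. This is near the background, with 1.92% and 3.29% of all models higher and 1.28% and 1.01% lower.

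The MO conditions were next compared with each other. In *kdm3a* MO against *kdm5c* MO, 0 of 77 members were called by edgeR's exact test, beside 0.0537% of all models, and DESeq2 and the quasi-likelihood test also called 0. At an unadjusted p below 0.05, 2 members were higher in *kdm3a* MO (2.6%, beside 1.52%) and 0 lower (beside 3.13%). These were *mmp17.L*, a membrane-anchored MMP, with a log2 difference of 1.53 (SE 0.74, unadjusted p = 0.0454 by the exact test), and *mmp23b.L*, with 2.07 (SE 0.98, unadjusted p = 0.0456). *mmp17.L* had 76 and 95 counts in *kdm5c* MO and 672 and 169 in *kdm3a* MO, and *mmp23b.L* had 6 and 32 counts and 133 and 98. For the collagenases the difference was 0.36 (SE 1.62) for *mmp8.L* and -0.16 (SE 0.998) for *mmp1.S*, standard errors wide enough that the MOs could differ several-fold. The comparisons against control share the control libraries, so their values are set side by side here and not counted as 2 lines of evidence.

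The share of a gene's counts that fell on its L copy also differed between libraries. For *mmp8* it was 74.6% (exact 95% binomial interval 73.4 to 75.7) in *kdm3a* MO 3 and 60.2% (58.3 to 62.0) in *kdm5c* MO 1, against 26.1% (23.1 to 29.4) in *kdm3a* MO 4, 14 of 70 counts (11.4% to 31.3%) in *kdm5c* MO 2 and 31.8% (18.6 to 47.6) in control 2, and control 1 had only 4 counts over both copies. For *mmp1* it was 18.9% (17.4 to 20.4) in *kdm5c* MO 1 and 16.6% (15.3 to 18.0) in *kdm3a* MO 3, and 0.951% (0.492 to 1.66) in *kdm3a* MO 4. In *kdm5c* MO 2 it was 0 of 218 counts, with an upper limit of 1.68% by the same interval, and in control 2 it was 0 of 166, with an upper limit of 2.20%. In control 1 it was 0 of 20 counts, with an upper limit of 16.8%, inside the interval of *kdm3a* MO 3. The L copies of both collagenases thus made up a larger share in the libraries where the genes were highest. Control 1 had too few counts of either gene to be placed.

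*adam10* ran between 60.5% and 70.4% on the L copy in 4 libraries, and reached 84.5% (81.5 to 87.1) in *kdm5c* MO 1 and 93.1% (92.0 to 94.0) in *kdm3a* MO 3. For *adam9* the L share was 4.55% (3.24 to 6.19) and 1.64% (1.16 to 2.25) in these 2 libraries, and between 13.2% and 27.2% in the others. Shares are counted from reads, and copies of near-identical sequence may trade reads, so the intervals cover counting error only. Where both mates of a read pair were counted, the intervals are too narrow even for that. Shifts over 4-fold also occurred in other genes, counted over 6685 genes with at least 50 counts over both copies in every library. The L to S ratio differed over 4-fold between the *kdm3a* MO libraries in 11.4%, between the *kdm5c* MO libraries in 10.2% and between the controls in 8.0%. Of the 19 member genes with that depth, 3 (*adam10*, *adam9* and *timp2*), 0 and 3 (*adam33*, *adamts1* and *adamts10*) did so. *mmp8* and *mmp1* lacked that depth, and how common shifts well over 4-fold were was not counted.

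**Figure D5:**
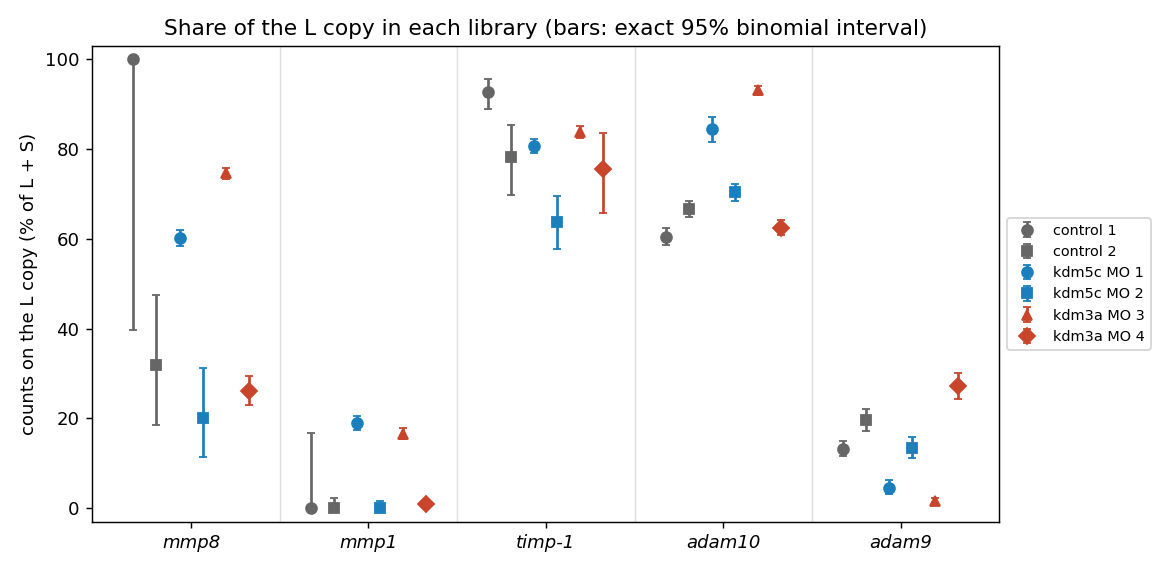
Share of counts on the L copy, in percent of L plus S, in each library for 5 genes, with exact 95% binomial intervals for counting error. *kdm5c* MO 1 and *kdm3a* MO 3 stand together and apart from the other libraries for *adam10* and *adam9*. For *mmp8* and *mmp1* they stand apart from all but control 1, which had only 4 and 20 counts of these genes. For *mmp1* the interval of control 1 reaches 16.8%, inside that of *kdm3a* MO 3. For *timp-1* the 6 libraries lie between 63.8% and 92.8%.

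Over genes with both copies tested, the L and S copies had the same sign in 22 of 30 in *kdm3a* MO and in 20 of 28 in *kdm5c* MO, and they differed by a median of 0.66 and 0.59 log2 units.

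Other genes of the pathway were counted from lists. Genes of AP-1 and cytokine signalling, among them known inducers of collagenases in mammals, had 24 of 35 tested copies higher in *kdm3a* MO and 1 lower (*ets1.S*) at an unadjusted p below 0.05, with 7 called by edgeR's exact test (*csf3.L*, *csf3.S*, *socs3.L*, *jun.L*, *junb.L*, *junb.S* and *cebpd.S*) and a median of 2.41 log2 units. Of all models, 1.92% were higher, 1.28% lower and 0.121% called higher. In *kdm5c* MO 9 of 30 were higher, beside 3.29% of all models, and 0 called. *csf3.L*, *socs3.L* and, in *kdm3a* MO, *csf3.S* were among those that needed the MO libraries to pass the filter on low counts. The counts, calls and median of this list were thus partly set by the filter and describe the tested copies only. *junb.L*, an AP-1 subunit, had 191 and 127 counts in the controls, 726 and 151 in *kdm5c* MO 1 and 2, and 3053 and 1443 in *kdm3a* MO 3 and 4. *il1b.S*, which encodes interleukin 1 beta, had 48 and 4 counts, 823 and 38, and 2738 and 340. The summed level of the list was 403 and 328 CPM in the controls, 1185 and 408 in *kdm5c* MO and 2149 and 1004 in *kdm3a* MO, so the same 3 libraries, *kdm5c* MO 1 and both of *kdm3a* MO, were highest for this list and for the collagenases. What links them was not tested.

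Of the matrix proteins that these proteases cut, 0 of 39 copies were below an unadjusted p of 0.05 in either comparison against control by edgeR's exact test. Only 1.92% and 3.29% of all models were higher and 1.28% and 1.01% lower at that limit. A count of 0 among 39 is thus near the background. For copies with controls far apart, as *col1a1.L* with 4 and 5379 counts and *col3a1.L* with 10 and 4822, the test could hardly show a difference.

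Since *mmp8* is a gene of neutrophils in mammals, myeloid markers were read beside it. Of 15 tested copies 1 (*lyz.L*, lysozyme) was higher in *kdm3a* MO at that limit, and 0 of 14 were in *kdm5c* MO. *lyz.L* needed the MO libraries, where it was high, to pass the filter on low counts. The summed level of the markers was 437 and 428 CPM in the controls, 265 and 444 in *kdm5c* MO 1 and 2, and 183 and 361 in *kdm3a* MO 3 and 4. The sum was thus lowest in *kdm5c* MO 1 and *kdm3a* MO 3. Without the *mpo* copies it was 164 and 180 CPM in the controls, 123 and 199 in *kdm5c* MO, and 153 and 144 in *kdm3a* MO, and *kdm3a* MO 3 was then above *kdm3a* MO 4. *coro1a.S*, which encodes an actin-binding protein of leukocytes, ran the other way, with 27.2 and 44.6 CPM in *kdm5c* MO 1 and *kdm3a* MO 3 and 8.98 to 14.4 CPM in the others. All 17 marker models had counts in some library, with *mpo.L*, myeloperoxidase, at 454 to 2933 counts and *csf1r.S*, a receptor of macrophages, at 0 in *kdm5c* MO 1 and 26 to 142 in the others. The summed level of the skeletal muscle markers was 3844 and 10046 CPM in the controls and 30972 and 9949 in *kdm5c* MO 1 and 2. It was 19576 and 10003 in *kdm3a* MO 3 and 4, so *kdm5c* MO 1 and *kdm3a* MO 3 were highest. At that limit 4 of 14 tested copies were higher in *kdm5c* MO, beside 3.29% of all models, and 0 in *kdm3a* MO, beside 1.92%. Not every copy followed the sum. *myf5.L* and *myod1.S* were highest in control 1, at 34.3 and 127 CPM, against 7.80 and 49.1 CPM in *kdm3a* MO 3. Their other copies, *myf5.S* and *myod1.L*, were highest in *kdm5c* MO 1, at 35.7 and 52.3 CPM. The part of tissue makeup in the collagenase and *timp-1* levels was not tested.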

How the data were processed

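Poly(A) RNA libraries of whole stage 32 embryos were sequenced, 2 per group in 3 groups. The authors mapped the reads with BWA (0.7.10 in the submitters' processing notes, another release in the methods) to *X. laevis* cDNA sequences and deposited raw counts per gene model, with L and S copies apart. How read pairs and reads with several matches were counted is not given in the sources used here, so close copies may share reads. The title and the description of control 2 give it different numbers, and its column was matched by the description. The series calls the libraries biological replicates.

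Each comparison was fitted on its own 4 libraries over all models with edgeR 4.0.16 in R 4.3.3: filterByExpr, TMM factors, classic dispersions and the exact test, with Benjamini-Hochberg adjustment over 26491, 26152 and 26092 models in *kdm3a* MO against control, *kdm5c* MO against control and *kdm3a* MO against *kdm5c* MO. Of the 87 members, 79, 77 and 77 passed the filter, and 8 passed in none. A copy that passed through the group where it was high had to differ, so counts over the members tested describe those only. With 2 libraries a group, an exact two-sided permutation test of 1 value cannot go below p = 0.333. CPM are scaled by TMM over all 6 libraries, and log2 differences between libraries used a pseudocount of 0.5 CPM. The floor was 3 counts per library, or 0.143 to 0.303 CPM.

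Members were named where they were called, were among the 10 largest differences below an unadjusted p of 0.05, were a TIMP copy, were a copy of a gene listed for its role in development, or had a high mean level; further copies are named to show the pattern they belong to, after their values were seen. The members and gene lists were chosen with earlier results of these data known. Alternatives were other scalings, filters and tests (DESeq2 1.42.0, the quasi-likelihood test), all 6 libraries in 1 fit, summed copies, a replicate block and each library left out. The fitting script was tested on simulated counts. No sequences were read. RefSeq held 70 of the 87 member symbols. The list of protease activators and other inhibitors is not reported here.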

Additional observations from a re-analysis of the deposited data

How the results depend on the processing

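With 2 libraries a group, single libraries set most results. Leaving out each in turn gave 0 to 6 called members in *kdm3a* MO against control, 3 to 17 higher and 0 to 3 lower at an unadjusted p below 0.05, and a median of -0.24 to 1.11 log2 units. In *kdm5c* MO against control it gave 0 to 4 called, 0 to 12 higher, 0 to 3 lower and -0.78 to 1.31. In *kdm3a* MO against *kdm5c* MO it gave 0 to 0 called, 0 to 6 higher, 0 to 2 lower and -0.0016 to 0.54. The 6 called without control 2 in *kdm3a* MO were *mmp8.L*, *mmp8.S*, *mmp1.S*, *mmp2.S*, *mmp9.S* and *adamts1.S*, without *kdm3a* MO 3 there were 0, and without *kdm3a* MO 4 there were 2.

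Signs turned for *timp-1.L* in *kdm3a* MO (-1.06 to 3.38), *mmp9.S* in *kdm3a* MO (-2.47 to 6.62) and in *kdm5c* MO (-1.27 to 7.80), *mmp2.S* in *kdm5c* MO (-1.02 to 3.75), and for the *kdm3a* MO to *kdm5c* MO difference of *mmp8.L* (-2.59 to 6.67) and *mmp1.S* (-1.03 to 2.67). Scaling by library size only turned the last to 0.40 and moved the median of all models to 0.34 log2 units in that comparison, with 0.43 for the members and 4 members higher. In *kdm5c* MO against control the same scaling moved all models to -0.34 and the members to -0.47. The upper values of *mmp9.S* rest on 2 counts in control 1 and are no bound.

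Called members in *kdm3a* MO against control numbered 0 where every library had to hold at least 10 counts. *mmp8.L*, with 4 counts in control 1, could not pass that filter, so this value was set by the filter. Called members numbered 0 with the quasi-likelihood test, 2 with DESeq2 and 0 with all 6 libraries in the fit, where 0, 83 and 10 of all models were called. At an FDR below 0.05 with no fold limit there were 3. DESeq2 gave 10 members higher at an unadjusted p below 0.05. Lower members in *kdm5c* MO numbered 0 with all 6 libraries and 0 with summed copies. Higher members in *kdm3a* MO against *kdm5c* MO numbered 1 at 10 counts, 1 with the quasi-likelihood test, 0 with all 6 libraries and 0 with summed copies. The cause of the other differences was not tested. Of the other values of these counts and medians, 88 stayed within their margin.

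By their titles the control and *kdm5c* MO libraries share replicate numbers 1 and 2. The description of control 2 gives it another number, so this match rests on its title. Deviations of the same title number correlated with r = 0.24 (Spearman 0.21) across 26152 models. With only 2 pairs this does not show pairing. With the replicate block, 0 members were called, 4 were higher and 2 lower at an unadjusted p below 0.05, the median was 0.16 log2 units, *mmp9.S* was at 2.36 and *mmp2.S* at 1.13. By title no control shares the numbers 3 and 4 of the *kdm3a* MO libraries, which were not blocked.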
